A study of Mus musculus with 262 samples.

Results

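Foxi1, Tfcp2l1, Elf5, Gata3, Gata2, Dmrt2, Hmx2, Ehf, Grhl2 and Pax2 are 10 transcription factor genes of the renal collecting duct, listed by symbol and followed through every deposited table of the series. All 10 were found among the 47069 genes of each TPM table (transcript abundance scaled for length and to a fixed total per sample) and in both tables of the GFP-sorted cells. The series holds 262 samples from kidneys of male mice aged 2 months, with no treatment named. C57BL/6 mice gave 235 single cells, which the authors called type A intercalated (87 cells), type B intercalated (23), principal (74), proximal tubule (19) and non-epithelial (32). They also gave 2 bulk samples sorted on the receptor c-Kit, 2 bulk samples sorted on DBA (a lectin), 11 single microdissected cortical collecting ducts (CCD) and 8 single cortical thick ascending limbs (cTAL). The strain labelled Atp6v1b1GFP gave 2 GFP-positive and 2 GFP-negative sorted samples, and which cells the reporter marks is not stated in the labels. The number of animals behind each sample is not given either, so p-values measure only the spread between these samples, which may be technical.

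The collecting duct mixes principal cells, which reabsorb water and sodium, with intercalated cells, which move acid and base: type A cells secrete protons and type B cells secrete bicarbonate. Foxi1, a forkhead factor, is required for intercalated cells and drives genes of the proton pump and of anion exchange, and Tfcp2l1, a factor of the grainyhead and CP2 family, is needed for the normal mixing of both cell classes. Gata3 and Pax2 act early, in the ureteric bud from which the duct grows. Gata2 acts in blood and in the urinary tract and bears on water channel expression, Ehf and Elf5 are epithelial factors of the ETS family, and Grhl2 maintains epithelial junctions. Dmrt2 (a DM domain factor) and Hmx2 (a homeobox factor) are known mainly from development of the somites and the inner ear.

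The upstream sequences of Foxi1, the gene shared by both intercalated types, and Dmrt2, the type A gene, are shown with CpG dinucleotides in capitals, as the 250 bases before the RefSeq start on GRCm38.p6. The Foxi1 window lies at chr11:34208090-34208339 on the minus strand and overlaps no annotated exon. The Dmrt2 window lies at chr19:25672161-25672410 on the plus strand and overlaps an exon of the noncoding neighbour 2610016A17Rik. The third is the upstream sequence of Atp6v1b1, which encodes a proton pump subunit and names the reporter strain, at chr6:83742767-83742989 on the plus strand, ending before the annotated gene start, with the forkhead letters in capitals.
Foxi1: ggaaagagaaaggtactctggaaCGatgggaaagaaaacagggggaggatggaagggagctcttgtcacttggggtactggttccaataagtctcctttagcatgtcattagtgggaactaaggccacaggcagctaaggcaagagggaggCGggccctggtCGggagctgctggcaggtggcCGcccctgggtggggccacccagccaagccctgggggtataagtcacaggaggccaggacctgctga
Dmrt2: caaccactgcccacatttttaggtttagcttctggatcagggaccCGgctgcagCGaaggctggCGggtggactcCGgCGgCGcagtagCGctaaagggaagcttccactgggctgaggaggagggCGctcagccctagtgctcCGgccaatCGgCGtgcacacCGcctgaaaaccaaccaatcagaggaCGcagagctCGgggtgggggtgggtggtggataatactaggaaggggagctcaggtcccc
Atp6v1b1: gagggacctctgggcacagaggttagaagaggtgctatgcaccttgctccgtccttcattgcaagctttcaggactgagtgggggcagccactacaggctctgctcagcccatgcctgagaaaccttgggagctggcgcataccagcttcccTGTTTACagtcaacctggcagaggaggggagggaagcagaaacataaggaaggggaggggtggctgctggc
RefSeq windows were at hand for 8 of the 10 genes, 13 windows in all (those of Ehf and Grhl2 were not among them). Foxi1 held 4 CpG and Dmrt2 held 14, the 13 windows ranged from 1 to 25 with a median of 16, and the median of all 32851 windows was 6. Searched on both strands, the forkhead letters TGTTTAC were in 3.17% of all windows, the GATA letters AGATAAG in 2.74%, the ETS letters CAGGAAGT in 2.69% and the grainyhead letters AACCGGTT in 0.116%. None of the 13 windows held any of the 4, and among 5 windows of genes linked to Foxi1 only that of Atp6v1b1 did, at bases 83742919 to 83742925, 71 bases before the annotated start. A match is a description of letters, and its absence says only that these letters are not in this window.

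Depth was known for the GFP samples alone, at 35530885 to 40815091 reads in genes. A gene was called detected from a TPM of 1 upward, which gave 1092 to 4307 detected genes in single cells and 7621 to 14004 in tubules. The labelled types were checked against fixed markers. Slc26a4, the type B anion exchanger, was detected in 23 of 23 type B and 2 of 87 type A cells, and Aqp2, the vasopressin-regulated water channel, in 74 of 74 principal cells. Labels and markers were also less distinct elsewhere. A cell carried a class with 3 or more of 5 intercalated or 3 or more of 8 principal cell genes at 10 TPM or above. By this count 11 of the 19 proximal and 20 of the 32 non-epithelial cells carried either class. Both classes at once were carried by 53 of the 74 principal and 29 of the 87 type A cells. The intercalated genes include Car2, detected in 99.6% of the 235 cells, and Rhcg, at 1907 TPM with DBA and 2128 TPM with c-Kit. Such genes are not particular to intercalated cells, and whether cells with both classes are mixed was not tested. The sort labels also differ between types: 17 of the 23 type B cells, and no cell of another type, came from a sort on PNA (a lectin), and the part of the sort in the shares below was not tested. The 32 non-epithelial cells all had the antigen presentation gene Cd74, whereas the endothelial and stromal markers Pecam1 and Pdgfrb were detected in 0 of them.

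**Figure D1:**
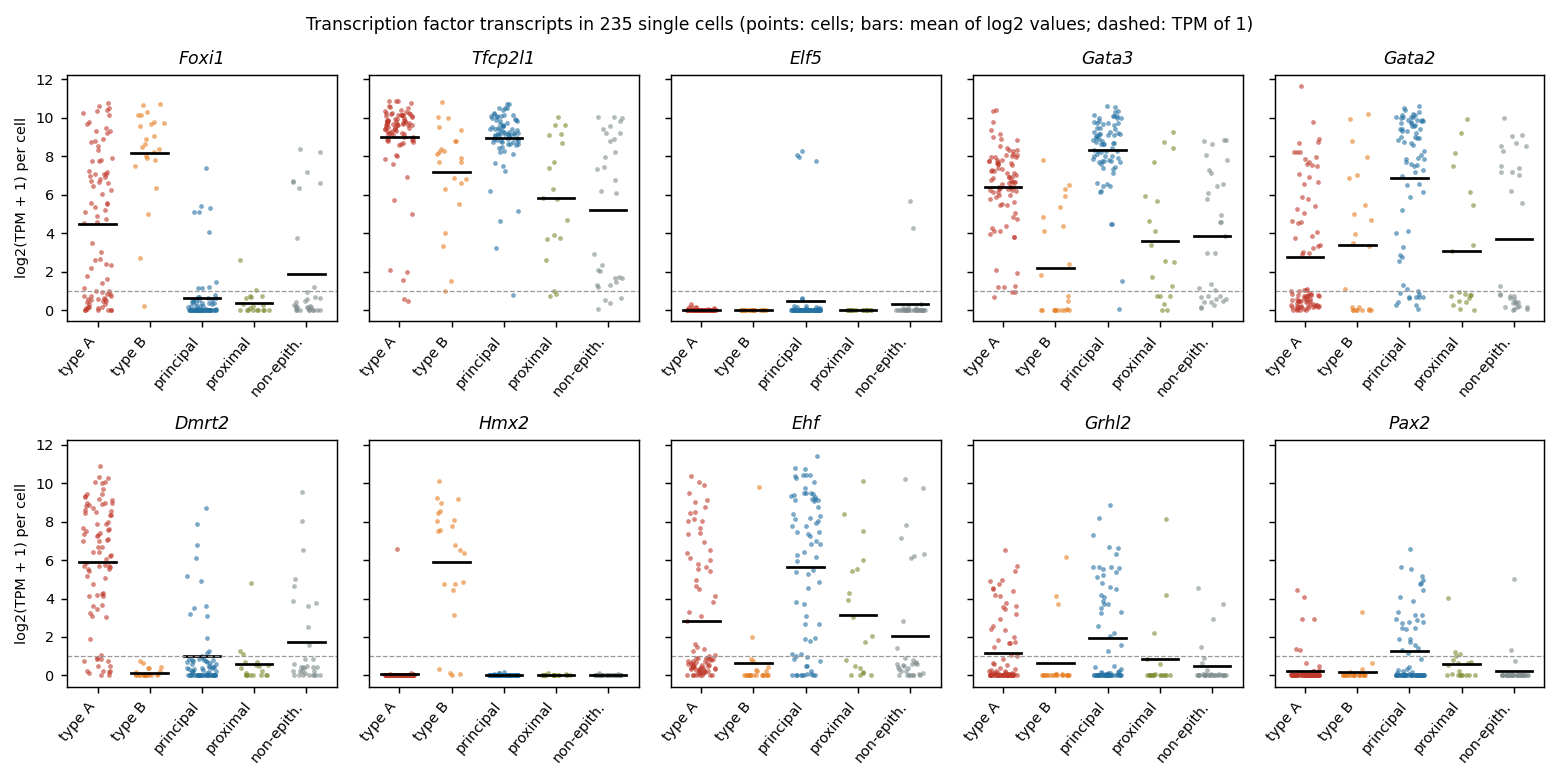
Level of each gene in each of the 235 single cells, as log2(TPM + 1), by the authors' cell type. Points are cells, bars are means of the log2 values and the dashed line marks a TPM of 1. Foxi1 is detected in 22 of 23 type B cells, Dmrt2 in 73 of 87 type A cells and Hmx2 in 19 of 23 type B cells, while Tfcp2l1 lies above the line in most cells of every type.

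In single cells the intercalated factors fell into a shared gene and a pair that split by subtype. Since the animals behind the cells are unnamed, a cell type counts as 1 sample, the SD given is over cells, no difference between types was tested, and exact Clopper-Pearson 95% intervals cover counting error only. Foxi1 (chromosome 11, 34204338 to 34208089, minus strand) averaged 588 TPM ± 504 (SD over 23 cells) in type B cells, with a lowest value of 0.16, a median of 396 and a highest of 1699.9. In type A cells it averaged 219 TPM ± 407 (SD over 87 cells), with a lowest value of 0, a median of 25.5 and a highest of 1768. The 2 types overlapped over nearly their whole range, but type B cells were more uniformly high. Foxi1 was detected in 95.7% of type B cells (22 of 23, interval 78.1% to 99.9%) and in 66.7% of type A cells (58 of 87, 55.7% to 76.4%). Its means were 36.5 TPM in non-epithelial cells (9 of 32 detected), 4.66 TPM in principal cells (10 of 74) and 0.495 TPM in proximal cells (2 of 19).

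Dmrt2 (chromosome 19, 25672411 to 25678991, plus strand) averaged 248 TPM ± 354 (SD over 87 cells) in type A cells, from 0 through a median of 85.3 to 1900.5. In type B cells its mean was 0.119 TPM and its highest value 0.68. Type A cells with Dmrt2 thus numbered 73 of 87 (83.9%, interval 74.5% to 90.9%) and type B cells 0 of 23. A count of 0 allows a share of up to 13.0% when set at 3 cells of the total, the limit used for counts of 0 here, and up to 14.8% by the exact interval. Dmrt2 was also detected in 14 of 74 principal, 3 of 19 proximal and 10 of 32 non-epithelial cells, with means of 12.8, 1.74 and 37.7 TPM.

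Hmx2 (chromosome 7, 131548773 to 131558014, plus strand) showed the opposite pattern. It averaged 218 TPM ± 273 (SD over 23 cells) in type B cells, from 0 through a median of 108 to 1115.5, and was detected in 19 of 23 (82.6%, interval 61.2% to 95.05%). Of the other 4 types only type A held a cell with Hmx2, 1 of 87. That cell had 94.4 TPM of Hmx2 together with 1768 TPM of Foxi1, the highest of any cell, 168 TPM of Dmrt2, 144 TPM of the type A exchanger Slc4a1 and 0.02 TPM of Slc26a4. The other type B markers, Slc4a9 and Insrr, were at 697 and 33.8 TPM in it, and it carried both the intercalated and the principal cell class. Hmx2 was detected in 0 of 74 principal, 0 of 19 proximal and 0 of 32 non-epithelial cells, which allows shares of up to 4.05%, 15.8% and 9.38% at 3 cells of each total and up to 4.86%, 17.6% and 10.9% by the exact intervals. The 4 type B cells without detected Hmx2 all had Slc26a4, at 191 to 2325 TPM, and Foxi1, at 5.59 to 1256 TPM.

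Tfcp2l1 (chromosome 1, 118627945 to 118685168, plus strand) was the most widely detected of the 10. It was found in 85 of 87 type A, 22 of 23 type B, 73 of 74 principal, 16 of 19 proximal and 28 of 32 non-epithelial cells. Mean levels were 793 TPM ± 436 (SD over cells) in type A, 672 ± 388 in principal, 371 ± 441 in type B, 273 ± 364 in non-epithelial and 253 ± 336 in proximal cells. Neighbours in that order differed by less than the SD over cells, and the medians kept the same order, at 798, 587, 242, 69.3 and 56.6 TPM.

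Gata3, Gata2 and Ehf had their highest means in principal cells. Gata3 (chromosome 2, 9857078 to 9890034, minus strand) averaged 504 TPM ± 377 (SD over 74 cells) in principal cells, from 0.04 through a median of 412 to 1557, and was detected in 73 of 74. Type A cells held less of it, 180 TPM ± 236 (SD over 87 cells), but in nearly as large a share, 84 of 87. Type B cells stood apart from both with 24.4 TPM and 10 of 23 detected (43.5%, interval 23.2% to 65.5%). Proximal and non-epithelial cells averaged 92.7 and 92.6 TPM, with 13 of 19 and 21 of 32 detected.

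Gata2 (chromosome 6, 88193891 to 88207032, plus strand) averaged 466 TPM ± 450 (SD over 74 cells) in principal cells, from 0.03 through a median of 345 to 1583, with 63 of 74 detected (85.1%, interval 75.0% to 92.3%). It averaged 97.3 TPM in type A cells (40 of 87, 46.0%, 35.2% to 57.0%) and 139 TPM in type B cells (13 of 23), 114 TPM in proximal cells (8 of 19) and 139 TPM in non-epithelial cells (15 of 32). The highest Gata2 value of all was nevertheless in a type A cell, 3261 TPM. Ehf (chromosome 2, 103263433 to 103303278, minus strand) averaged 358 TPM ± 531 (SD over 74 cells) in principal cells, from 0 through a median of 113 to 2748, with 58 of 74 detected. It reached 96.8 TPM in type A cells (38 of 87), 94.99 TPM in proximal cells (11 of 19), 83.5 TPM in non-epithelial cells (9 of 32) and 38.7 TPM in type B cells (2 of 23). The type B mean rested on 1 cell at 885 TPM: the median was 0, and without that cell the mean was 0.25 TPM.

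Elf5 (chromosome 2, 103411688 to 103450989, plus strand), which lies 108409 bases from Ehf with no annotated protein-coding gene between them, was rare and high where present. Only 4 of 74 principal cells had it (5.41%, interval 1.49% to 13.3%), at 215, 251, 272 and 305 TPM, and these 4 cells set the principal cell mean of 14.1 TPM. All 4 also had Gata3 (565 to 904 TPM), Gata2 (235 to 852 TPM), Ehf (70.7 to 871 TPM) and Pax2 (4.37 to 49.5 TPM). Elf5 was detected in 0 of 87 type A cells, 0 of 23 type B cells and 0 of 19 proximal cells, which allows shares of up to 3.45%, 13.0% and 15.8% at 3 cells of each total and up to 4.15%, 14.8% and 17.6% by the exact intervals. The 2 non-epithelial cells with Elf5, at 49.98 and 18.45 TPM, carried 942 and 1858 TPM of Aqp2 beside 20178 and 18249 TPM of Cd74.

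Grhl2 and Pax2 were low in every type. Grhl2 (chromosome 15, 37233036 to 37363569, plus strand) averaged 23.5 TPM ± 67.9 (SD over 74 cells) in principal cells with 30 of 74 detected, against 5.28 TPM in type A (28 of 87), 4.33 TPM in type B (3 of 23), 15.7 TPM in proximal (3 of 19) and 1.40 TPM in non-epithelial cells (4 of 32). The proximal mean rested on a cell at 276 TPM. Pax2 (chromosome 19, 44756045 to 44837871, plus strand) averaged 5.98 TPM ± 14.7 (SD over 74 cells) in principal cells with 28 of 74 detected, and between 0.428 and 1.15 TPM elsewhere, with 6 of 87, 1 of 23, 4 of 19 and 2 of 32 detected in type A, type B, proximal and non-epithelial cells. For both genes the means of neighbouring types differed by less than the SD over cells.

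On the scale of mean TPM plus 1, Foxi1 was 38.8 times and Dmrt2 18.0 times higher in type A than in principal cells, where 9.73% of 13204 genes were at least 4 times higher. Elf5 (15.0 times), Gata2 (4.75) and Pax2 (4.24) were at least 4 times higher in principal than in type A cells, against 13.8% of the same genes. Hmx2 was 105 times higher in type B than in type A cells, where 8.81% of 12344 genes passed that fold, and Dmrt2 (223 times) and Gata3 (7.12 times) were higher in type A than in type B, against 18% of them. Principal cells exceeded type B cells at least 4 times for Gata3 (19.9), Elf5 (15.1), Dmrt2 (12.4), Ehf (9.04), Pax2 (4.89) and Grhl2 (4.59), against 23.6% of 12659 genes. Type B cells exceeded principal cells at least 4 times for Hmx2 (218) and Foxi1 (104), against 9.76%. These ratios compare single samples and have no replicate check, and some rested on 1 cell, a check chosen after seeing the data. Without the highest type B cell, principal against type B became 287 times for Ehf, 10.5 times for Grhl2 and 30.8 times for Gata3, and type A against type B 11.0 times for Gata3. Without the single type A cell that had Hmx2, type B against type A was 219 times for it. Without the highest principal cell, Foxi1 became 64.4 times (type A) and 173 times (type B) and Dmrt2 30.2 times higher than in principal cells, and principal against type B was 7.37 times for Dmrt2. Grhl2 (3.44 against type B) and Pax2 (3.50 against type A) were then under 4 times. Without the highest type A cell, Gata2 was 7.59 times higher in principal than in type A cells. The other ratios named so far moved by less than 1.5 times. Ratios first under 4 also passed it. Without the highest type B cell, type A against type B went from 2.46 to 78.3 for Ehf, and principal against type B from 3.34 to 4.98 for Gata2. Without the highest type A cell, principal against type A went from 3.67 to 4.31 for Ehf and from 3.90 to 4.62 for Grhl2.

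The pairs of genes detected in the same cell differed between the types, along with the genes that each type held. The genes detected in at least 50% of cells were Foxi1, Tfcp2l1, Gata3 and Dmrt2 in type A, Foxi1, Tfcp2l1, Gata2 and Hmx2 in type B, and Tfcp2l1, Gata3, Gata2 and Ehf in principal cells. Among 19175 genes detected in any cell, the same share was reached by 7.86% in type A, 9.04% in type B and 8.42% in principal cells. Proximal cells had 3 such members (9.94% of genes) and non-epithelial cells 2 (8.4%). With the cells that carried collecting duct genes left out, the count was 1 in both. Of the 45 possible pairs, 6 were found together in at least 50% of type A cells, 5 in type B and 6 in principal cells. Proximal cells had 3 such pairs and non-epithelial cells 1. A pair can reach 50% only where both of its genes do, so these counts follow largely from the shares of single genes. Whether pairs met more often than those shares give was not tested.

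**Figure D2:**
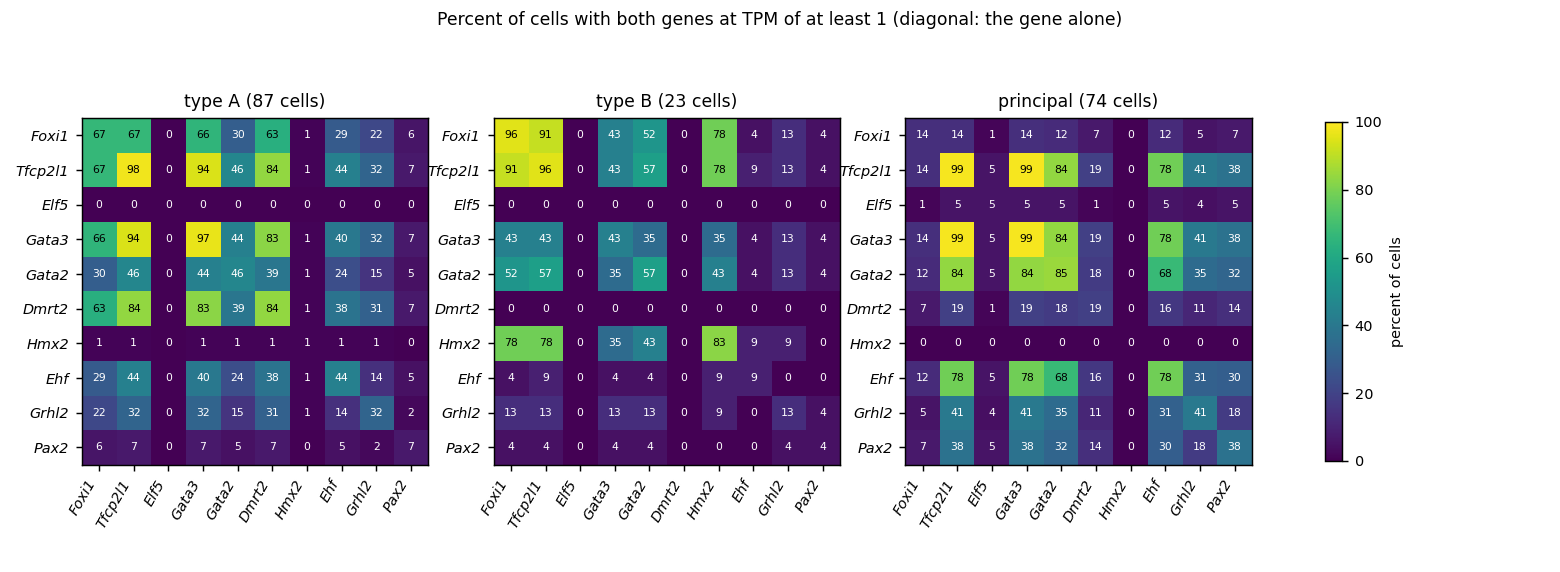
Percent of type A, type B and principal cells in which both genes of a pair have a TPM of at least 1, with the share of each gene alone on the diagonal. Foxi1 pairs with Dmrt2 in 63% of type A cells and with Hmx2 in 78% of type B cells, and Gata3 pairs with Gata2 in 84% of principal cells.

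Foxi1 and Dmrt2 were found together in 55 of 87 type A cells. Of the type A cells with Foxi1, 94.8% (interval 85.6% to 98.9%) had Dmrt2, and of those without it 62.1% (42.3% to 79.3%) did. The 18 cells with Dmrt2 alone far outnumbered the 3 with Foxi1 alone, and 11 type A cells had neither, nor Hmx2. Type A cells without Foxi1 had a median of 2460 genes against 2762.5 in those with it, and the part of that difference in the shares was not tested. Across the 87 cells Pearson's r of the log2 levels was 0.26 and Spearman's rho 0.28, a weak relation given here as a description.

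In type B cells 18 of 23 had Foxi1 with Hmx2, 4 had Foxi1 alone and 1 had Hmx2 alone. The last cell had 20.8 TPM of Hmx2, 0.16 TPM of Foxi1 and 2223 TPM of Slc26a4, with 885 TPM of Ehf, the highest Ehf of that type. Dmrt2 and Hmx2, each frequent in a subtype, were found together in a single cell of the 235. Of the 58 type A cells with Foxi1, 57 also had Gata3 (98.3%, interval 90.8% to 99.96%), and of the 22 type B cells with Foxi1, 10 had it (45.5%, interval 24.4% to 67.8%). Gata3 was in 84 of all 87 type A cells. The 10 type B cells with Gata3 had a median of 3831.5 genes, and the type B cells without it had a lower median. That gap was wider than the one given above for Foxi1 in type A cells. Its part in the type B share of Gata3 was not tested.

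Principal cells most often held Gata3, Gata2 and Ehf together, 50 of 74, followed by Gata3 with Gata2 (12) and Gata3 with Ehf (8). Gata2 and Ehf showed little relation within the type: Ehf was found in 79.4% (interval 67.3% to 88.5%) of principal cells with Gata2 and in 72.7% (39.0% to 94.0%) of those without, and r over the 74 cells was 0.05. The 4 cells with Elf5 all had Pax2, which was in 34.3% (23.3% to 46.6%) of the other 70. The 10 principal cells with Foxi1 differed in markers from the 64 without. Their median Aqp2 was 873 against 2165 TPM, their median Atp6v1b1 236 against 22.5 TPM, and the summed level of 4 type A markers had a median of 152 TPM (1.32 to 1347.5) against 0.9 TPM (0 to 1580). The part of these type A transcripts in the Foxi1 signal was not tested.

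Some collecting duct markers also moved with the members in the types outside the duct. The 13 proximal cells with Gata3 had a median of 247 TPM of Aqp2 and the 6 without had 0.02 TPM. The 9 non-epithelial cells with Foxi1 had a median summed level of 613 TPM (0.97 to 970.57) for the 4 type A markers, against 3.88 TPM (0 to 839.58) in the 23 without. The 8 principal cell genes went the other way, with median sums of 34.3 TPM with Foxi1 and 172.67 TPM without. The part of these markers in the detection of Gata3 and Foxi1 was not tested.

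The genes most like each member, by Pearson's r of log2(TPM + 1) over all 235 cells among 7565 genes detected in at least 10% of cells, were the following. Foxi1 was most like the proton pump subunit genes Atp6v1c2 (0.68), Atp6v0d2 (0.67) and Atp6v1g3 (0.67). Dmrt2 was most like Adgrf5 (0.79), Slc4a1 (0.74) and Mme (0.72), of which Adgrf5 and Slc4a1 were on the type A marker list. Tfcp2l1 was most like Car2 (0.66), the cytosolic carbonic anhydrase, and the glycolytic genes Ldhb (0.64) and Aldoa (0.63). Gata3 was most like Spry2 (0.66), Aqp3 (0.62) and Sdc4 (0.61), and Gata2 was most like Fxyd4 (0.57), Apela (0.53) and Avpr2 (0.52). For Ehf, Grhl2 and Pax2 no gene reached 0.5, and Elf5 and Hmx2 were in too few cells. The 235 cells are of 5 types, so r describes the mixture of types as well as levels within them.

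Bulk cells sorted on c-Kit or DBA separated the members in both directions. In bulk samples fewer cells of a type and less RNA per cell cannot be told apart. Kit, which encodes the receptor used to sort, is one of the 4 type A markers. The c-Kit samples had 3239 to 3261 TPM of the 4 type A markers and 2842 to 3759 TPM of 8 principal cell genes, and the DBA samples 70.6 to 84.5 and 23272 to 25868 TPM. The principal cell, proximal and non-epithelial marker sums were thus lower with c-Kit, and their part in the members' differences was not tested. Of 14341 genes tested with limma on log2(TPM + 1), 44.3% were called, 16.1% higher and 28.1% lower with c-Kit, at a Benjamini-Hochberg adjusted p under 0.05, and the median difference of all genes was -0.11. Of the 10 members, 4 were higher, 4 were lower and 2 were not called, with a median of -0.13.

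Foxi1 was at 78.6 and 77.5 TPM in the DBA samples and at 1072 and 1065 TPM in the c-Kit samples. The groups lay far apart, with a log2 difference of 3.76 (SE 0.05, limma adjusted p = 5.58e-07). Dmrt2 was at 8.42 and 10.0 TPM with DBA and at 305 and 310 TPM with c-Kit, the largest difference of the 10 at 4.92 (SE 0.09, limma adjusted p = 1.10e-06). Hmx2, at 25.5 and 21.4 TPM against 94.1 and 89.1 TPM, was higher by 1.92 (SE 0.10, limma adjusted p = 2.76e-05). All 3 intercalated factors were higher in both c-Kit samples than in either DBA sample. Tfcp2l1, at 237 and 231 TPM against 288 and 270.2 TPM, was called higher by 0.25 (SE 0.06, limma adjusted p = 0.0156). That call was lost, with limma adjusted p of 0.0744 to 0.101, without the first c-Kit sample (0.21), without the first DBA sample (0.27), without the second DBA sample (0.23) and without a variance trend.

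Elf5 fell most among the members that were lower with c-Kit. It was at 10.1 and 13.3 TPM in the DBA samples and at 1.34 and 1.49 TPM in the c-Kit samples, a difference of -2.38 (SE 0.19, limma adjusted p = 1.54e-04) that became -1.37 with a pseudocount of 5. Gata2, at 265 and 256 TPM against 86.6 and 79.2 TPM, fell by 1.64 (SE 0.07, limma adjusted p = 1.25e-05). Ehf, at 139 and 123 TPM against 53.9 and 49.1 TPM, fell by 1.33 (SE 0.09, limma adjusted p = 7.06e-05). The c-Kit and DBA values of these 3 genes did not overlap. Gata3, at 122 and 111 TPM against 74.8 and 73.8 TPM, fell by 0.64 (SE 0.07, limma adjusted p = 6.36e-04), the smallest called decrease.

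Pax2 and Grhl2 were not called. Pax2 was at 5.04 and 4.18 TPM with DBA and at 3.25 and 2.76 TPM with c-Kit, a difference of -0.48 (SE 0.19, limma adjusted p = 0.0785) that passed without a variance trend (0.0432). Grhl2 was at 16.7 and 18.0 TPM against 19.8 and 21.2 TPM, a difference of 0.23 (SE 0.10, limma adjusted p = 0.116) that passed under quantile normalization at 0.41 (0.0210). For both genes the groups did not overlap, as for 5 members higher and 5 lower in all. Among all genes 27.6% lay wholly higher and 46.3% wholly lower with c-Kit.

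**Figure D3:**
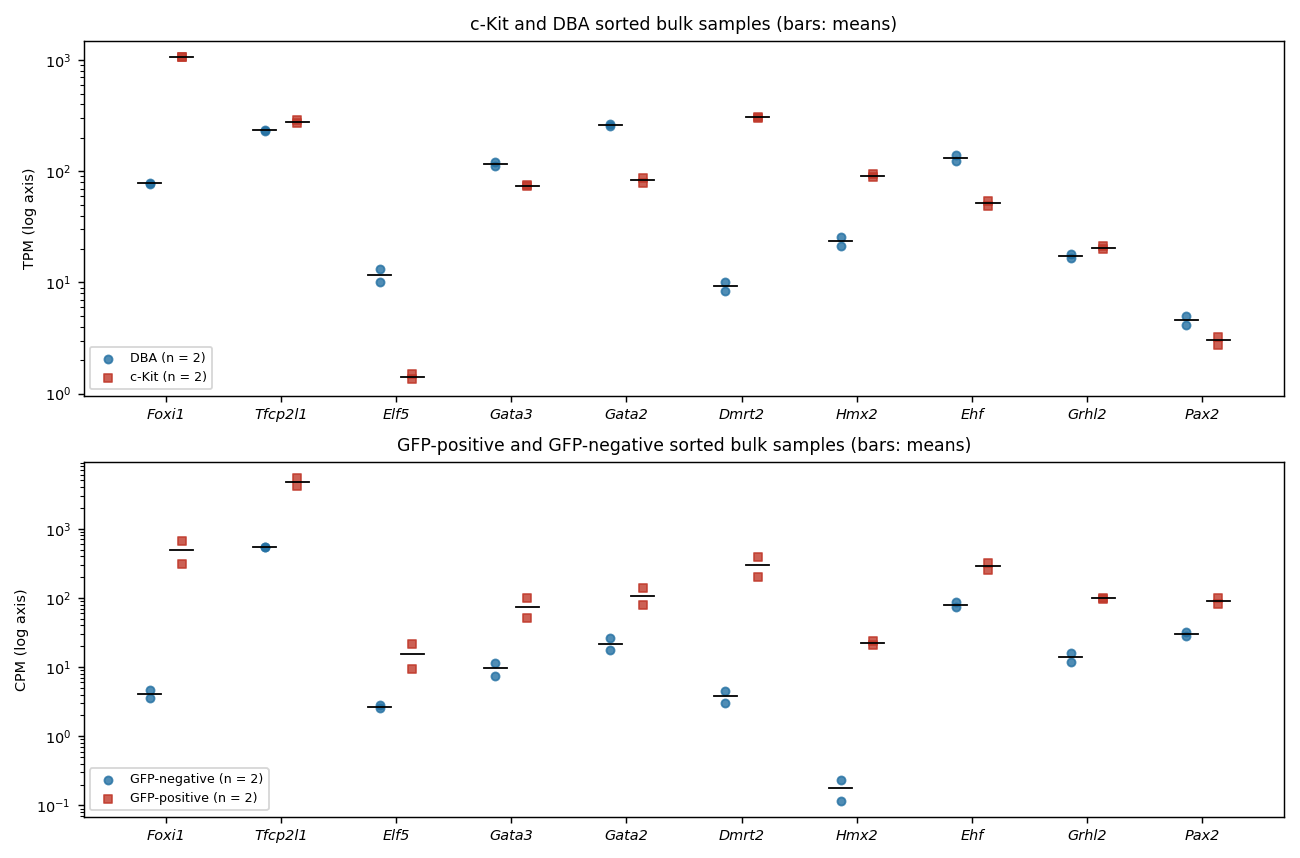
Level of each gene in the 2 c-Kit and 2 DBA samples (TPM) and in the 2 GFP-positive and 2 GFP-negative samples (CPM), on log axes, with bars at the means. The c-Kit samples are above DBA for Foxi1, Dmrt2 and Hmx2 and below for Elf5, Gata2, Ehf and Gata3, whereas all 10 genes are higher with GFP.

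In the GFP-sorted cells all 10 members were higher in the GFP-positive samples, where 15.2% of 15671 genes tested on read counts with edgeR's quasi-likelihood test were called higher and 17.3% lower at an adjusted p under 0.05. The median log2 difference was 2.90 over the 10 and 0.02 over all genes. In both positive samples every member was above both negative samples, as were 35.8% of all genes, while 34.4% lay wholly lower. The sort separated more than intercalated cells. The summed level of 5 distal convoluted and connecting tubule markers was 2608 to 3666 CPM (read counts scaled to library size) with GFP and 152 to 202 CPM without, 7 of 8 principal cell genes were called higher, and 7 of 7 proximal and 7 of 8 non-epithelial markers were called lower. Their part in the members' differences was not tested.

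Hmx2 had 5 and 8 reads in the GFP-negative and 775 and 913 reads in the GFP-positive samples, or 0.117 and 0.234 CPM against 20.8 and 24.1 CPM. It differed by 7.01 on the log2 scale (SE 0.43, edgeR adjusted p = 4.31e-05), the largest of the 10, but by 3.70 with limma on log2 of the authors' RPKM values plus a pseudocount, where it was listed at 0 in a negative sample. The log2 ratio of the group means was 7.00 from CPM and 7.52 from RPKM. Foxi1, at 4.62 and 3.57 CPM against 311 and 667 CPM, differed by 6.90 (SE 0.42, edgeR adjusted p = 4.31e-05). Without the second GFP-positive sample, the higher of the pair, the difference was 6.25. Dmrt2, at 4.47 and 3.04 CPM against 201 and 395 CPM, differed by 6.30 (SE 0.39, edgeR adjusted p = 4.31e-05). The 3 intercalated factors had the largest differences of the 10 genes, and on RPKM Foxi1 and Dmrt2 differed by 5.90 and 4.97.

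The other 7 differences ranged from 1.58 to 3.13. Tfcp2l1, at 539 and 549 CPM against 4129 and 5413 CPM, was higher by 3.13 (SE 0.24, edgeR adjusted p = 6.23e-05). Gata3 was at 11.6 and 7.46 CPM against 51.4 and 98.2 CPM, higher by 2.97 (SE 0.35, edgeR adjusted p = 3.96e-04). The GFP-positive pair lay closer together for Tfcp2l1 than for Gata3, and neither gene overlapped between groups. Grhl2, at 11.7 and 16.1 CPM against 97.2 and 100.9 CPM, was higher by 2.83 (SE 0.22, edgeR adjusted p = 6.50e-05). Gata2, at 26.0 and 17.5 CPM against 77.9 and 138 CPM, was higher by 2.31 (SE 0.31, edgeR adjusted p = 6.92e-04). In both genes the groups were separate.

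The ETS factors rose as well. Elf5, at 2.81 and 2.54 CPM against 9.38 and 21.5 CPM, was higher by 2.52 (SE 0.44, edgeR adjusted p = 0.00274). Without the second GFP-positive sample this was 1.81, still called, and the ratio of means was 2.53 on the log2 scale from counts but 3.99 from the RPKM table. Ehf, at 72.8 and 87.1 CPM against 256 and 318 CPM, was higher by 1.84 (SE 0.19, edgeR adjusted p = 2.01e-04). Pax2, at 28.1 and 32.6 CPM against 80.8 and 100.7 CPM, had the smallest increase, 1.58 (SE 0.20, edgeR adjusted p = 5.01e-04). Each of the 10 kept its call in every alternative run on this comparison. Tfcp2l1, Gata3, Hmx2, Grhl2 and Pax2 overlap other annotated genes, whose reads cannot be told apart where counting did not use strand.

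**Figure D4:**
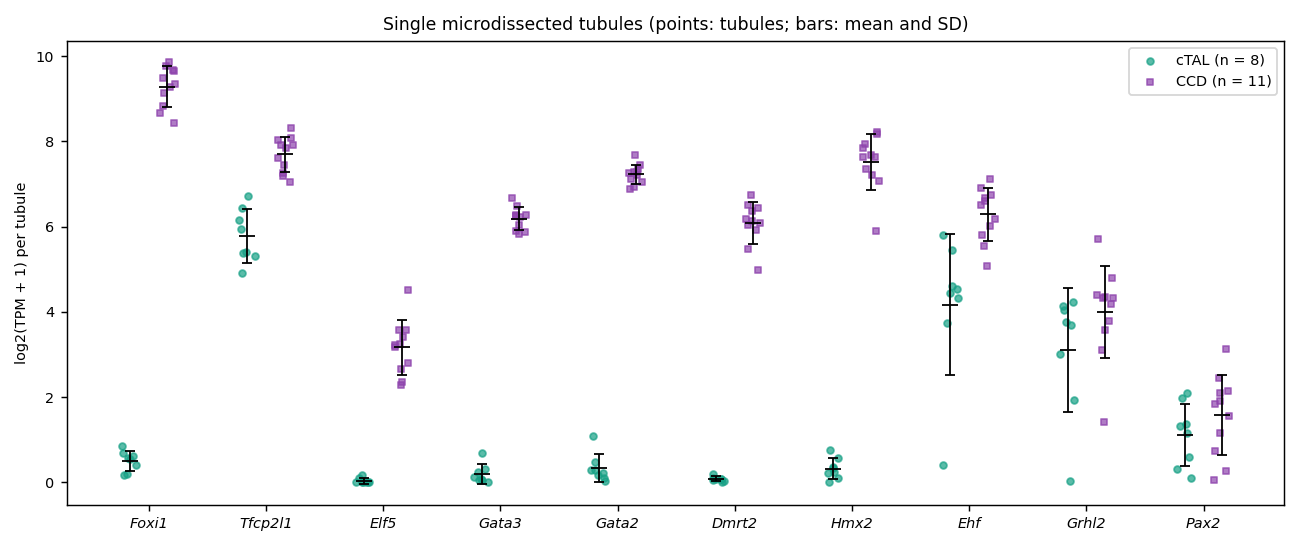
Level of each gene in the 8 cTAL and 11 CCD tubules as log2(TPM + 1), with points for tubules and bars for the mean and SD. Foxi1, Elf5, Gata3, Gata2, Dmrt2 and Hmx2 are near 0 in every cTAL tubule, Tfcp2l1, Ehf and Grhl2 are present in both segments, and Pax2 is low in both.

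The microdissected tubules held 6 members that were near 0 in the cTAL. Tfcp2l1, Ehf and Grhl2 were present in both segments, and Pax2 was low in both. The defining genes of both segments separated them: 5 of 5 thick ascending limb markers were called lower in CCD, and the summed level of 8 principal cell genes was 26368 to 48119 TPM in CCD and 44.2 to 214 TPM in cTAL. Of 13520 genes tested with limma on log2(TPM + 1), 13.2% were called higher and 5.5% lower in CCD, with a median difference of 0.31. Of the 10 members 8 were called higher, 0 were called lower and 2 were not called, with a median difference of 4.56. Column names carry 1 of 7 prefixes, and 8 of the 11 CCD tubules share theirs with another CCD. If a prefix marks an animal, these p-values are too small, but with 1 mean per prefix and segment no member changed its call.

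Foxi1 ran from 345 through a median of 646 to 935 TPM in the 11 CCD tubules and from 0.13 through 0.47 to 0.8 TPM in the 8 cTAL tubules. The segments were far apart, with a log2 difference of 8.78 (SE 0.23, limma adjusted p = 1.29e-18). Hmx2 ran from 58.5 through 197 to 300.01 TPM in CCD and from 0 through 0.22 to 0.69 TPM in cTAL, a difference of 7.19 (SE 0.29, limma adjusted p = 7.75e-15). Dmrt2 ran from 30.8 through 69.1 to 106 TPM in CCD and from 0 through 0.055 to 0.15 TPM in cTAL, a difference of 6.00 (SE 0.29, limma adjusted p = 1.46e-13). In CCD tubules Foxi1 was thus the most abundant member per length, with Tfcp2l1 and Hmx2 next by mean, at 654 TPM ± 197, 214 ± 59.2 and 197 ± 70.1 (SD, n = 11). The lowest Foxi1 and Dmrt2 and the highest Hmx2 were in the pair of CCD tubules with the prefix m6.

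Gata2 ran from 118 through 152.5 to 204 TPM in CCD and from 0.02 through 0.19 to 1.11 TPM in cTAL, a difference of 6.90 (SE 0.24, limma adjusted p = 3.36e-16). Gata3 ran from 55.5 through 75.35 to 101 TPM in CCD and from 0.01 through 0.07 to 0.62 TPM in cTAL, a difference of 5.99 (SE 0.26, limma adjusted p = 2.02e-14). Both GATA factors thus showed no overlap between segments. Elf5 was low in CCD, from 3.86 through 8.33 to 22.0 TPM, and was listed at 0 in 6 of the 8 cTAL tubules, with a highest value there of 0.13 TPM. Its difference was 3.13 (SE 0.32, limma adjusted p = 9.79e-08). Where the cTAL values are near 0 the size depends on the pseudocount: from 5 to 0.1 it ran from 1.39 to 6.07 for Elf5, 6.86 to 10.33 for Foxi1, 5.15 to 9.20 for Hmx2, 4.87 to 8.93 for Gata2, 3.83 to 8.78 for Dmrt2 and 3.90 to 8.40 for Gata3. Every one of these kept its call.

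Tfcp2l1 was present in both segments, from 131 through 229 to 319 TPM in CCD and from 29.1 through 50.7 to 105 TPM in cTAL. The ranges did not overlap, and the difference was 1.91 (SE 0.24, limma adjusted p = 1.74e-06). Ehf ran from 32.5 through 89.9 to 138.5 TPM in CCD and from 0.32 through 21.5 to 54.7 TPM in cTAL, a difference of 2.12 (SE 0.50, limma adjusted p = 0.00366) with overlapping ranges. Grhl2 ran from 1.68 through 19.01 to 51.5 TPM in CCD and from 0.02 through 12.3 to 17.8 TPM in cTAL. Its difference of 0.89 (SE 0.56, limma adjusted p = 0.317) was not called. Pax2 ran from 0.04 through 2.56 to 7.81 TPM in CCD and from 0.07 through 1.365 to 3.26 TPM in cTAL, with a difference of 0.46 (SE 0.42, limma adjusted p = 0.516) that turned to -0.24 under quantile normalization. For Grhl2 and Pax2 the segments overlapped over most of their range. In all, 7 members lay wholly higher in CCD, where 3.4% of all genes did and 2.11% lay wholly lower.

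**Figure D5:**
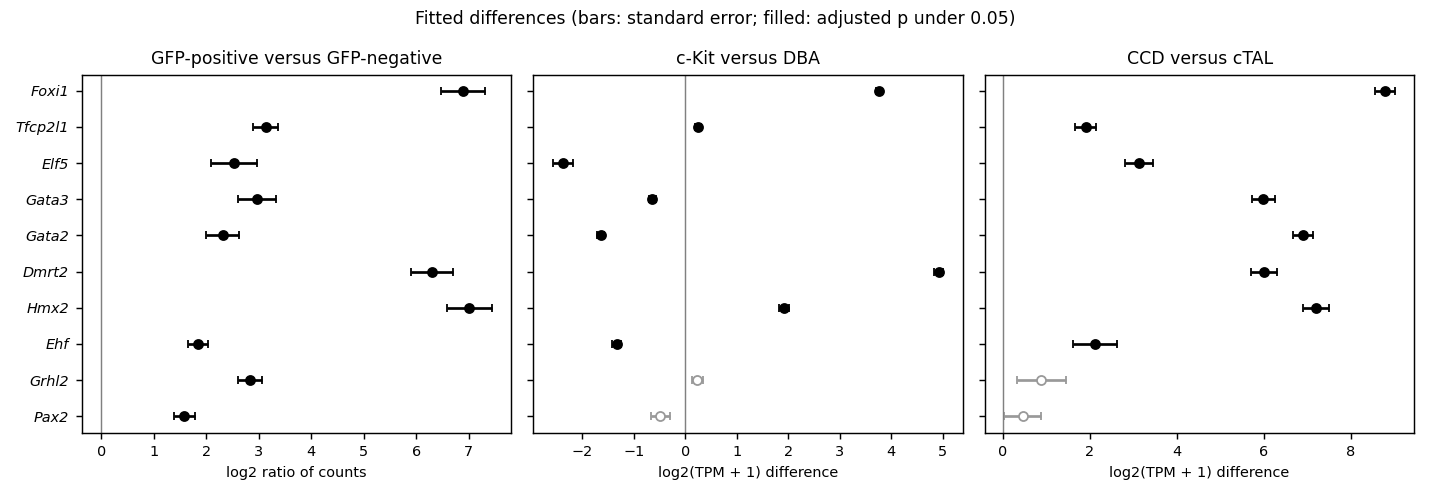
Fitted log2 difference of each gene in the 3 comparisons, with bars for the standard error and filled symbols for an adjusted p under 0.05. Foxi1, Dmrt2 and Hmx2 are to the right in all 3 panels, and Gata2, Gata3, Ehf and Elf5 are to the right with GFP and in CCD and to the left with c-Kit.

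Genes tied to the members by background knowledge were followed as lists. Of all genes tested, 15.2%, 16.1% and 13.2% were called higher with GFP, with c-Kit and in CCD, and 17.3%, 28.1% and 5.5% lower. Of 8 genes linked to Foxi1 in intercalated cells, 7 were tested in each comparison, and all 7 were called higher in each. Slc4a1, Slc26a4, Slc4a9, Atp6v1b1 and Car2 are also intercalated markers, and Atp6v1b1 names the reporter strain. Their calls cannot be told apart from the share of intercalated cells in a sample. The 7 genes had median log2 differences of 4.97, 2.17 and 2.38. The largest was Slc26a4 with GFP (7.12, from 5.09 to 712 CPM) and in CCD (9.28, from 0.88 to 1149 TPM), and Slc4a1 with c-Kit (5.73, from 31.6 to 1728 TPM). The smallest were Atp6v1a with GFP (1.35), Car2 with c-Kit (1.42) and Atp6v0a4 in CCD (0.77). Atp6v1e2 was not tested, being under the filter. Of 8 principal cell genes, 7 were called higher with GFP (all but Aqp4, at 0.30), 8 lower with c-Kit and 8 higher in CCD, with medians of 2.15, -2.87 and 9.22. Gata2, Gata3, Ehf and Elf5 thus had the sign of the principal cell list in each comparison.

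Of 8 epithelial junction genes and factors linked to Grhl2, 4 were called higher and 1 lower with GFP, 1 higher and 4 lower with c-Kit, and 4 higher in CCD, with medians of 1.32, -0.31 and 0.77. Cldn4, a tight junction claudin, moved most in CCD (6.98, from 0.144 to 156 TPM), while Ovol1 alone was called lower with GFP (-1.50). The Grhl2 transcript was itself called only in the GFP comparison.

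Paralogs of the members were mostly low. Of 21, 12 passed the filter with GFP, 9 with c-Kit and 8 in the tubules; 4, 1 and 3 were called higher and 0, 4 and 0 lower. Elf3, an ETS paralog of Elf5 and Ehf, was higher with GFP (1.22) and lower with c-Kit (-1.03). Grhl1 was called higher with GFP (1.72) and with c-Kit (1.36), and was the sole paralog higher with c-Kit. Pax8, the paired-box paralog of Pax2, was lower with c-Kit (-0.90), higher in CCD (1.71, 161 against 53.1 TPM) and at -0.11 with GFP, where it was not called. In single cells Pax8 was detected in 57 of 74 principal and 62 of 87 type A cells, well above the 28 and 6 cells with Pax2.

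Of 16 other nephron transcription factors, 6 were called higher and 5 lower with GFP, 1 higher and 7 lower with c-Kit, and 4 higher and 5 lower in CCD. Hnf4a, a proximal tubule factor, was lower with GFP (-2.22), and Irx1, Irx2 and Irx3, expressed in the intermediate nephron, were lower in CCD (-2.85, -5.26 and -2.92). Mecom was called higher with GFP (2.45) and with c-Kit (0.30). With GFP the extremes of this list were Tfap2a (3.35) and Irx3 (-2.46). Tfap2b was higher with GFP (1.31), lower with c-Kit (-1.62) and lower in CCD (-0.91), a combination that none of the 10 members showed.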

How the data were processed

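Only tables deposited by the authors were analysed, and samples were grouped by their titles. The authors' TPM values cover single cells, c-Kit and DBA samples and tubules, and the deposited read counts and RPKM values cover the GFP samples. STAR 2.5.1b, RSEM 1.2.31, Seurat and GRCm38.p5 are named in the submitters' processing notes, with no role given. The file names of the deposited counts and RPKM give mm10, RefSeq and HTSeq-count. The strand setting of the counting was not given in these sources. Rows that name no gene (66.7% to 72.8% of listed reads) stayed out of library sizes.

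Counts were fitted with edgeR 4.0.16 (TMM, filterByExpr, quasi-likelihood), and TPM with limma 3.58.1 on log2(TPM + 1) with a variance trend, keeping genes whose mean reached 1 TPM. Only the groups compared entered a fit, without covariates. P-values were adjusted over all genes tested (Benjamini-Hochberg). Fits were tested on simulated data. Single cells were summarised with Python 3.11.15 and scipy 1.17.1, keeping all 235 cells; TPM keeps no depth, and no doublet caller was run. The TPM fold understates changes of low genes.

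The members and lists were chosen with earlier results of these data known. Genes named are the 10 members and up to 3 genes of like pattern with r of at least 0.5. From each list some genes are named, not in every comparison its extremes or all that go against the rest. The RPKM headers pair positive and negative samples by experiment, and the deviations of the first pair correlated at 0.17. Gene positions are from GENCODE M21 on GRCm38. The number of deposited per-sample columns left unused was 0. Alternatives were DESeq2 1.42.0, other filters, pseudocounts, normalizations, weights, blocks, detection thresholds and leaving out samples.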

Additional observations from a re-analysis of the deposited data

Results flagged for a closer look

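In the 8 cTAL tubules the highest value of 3 members stood far from the others, by Dixon's ratio of the gap to the whole range. Gata2 reached 1.11 TPM in a tubule with the prefix m7, against 0.38 TPM in the next (ratio 0.670, above the critical value for 8 samples). Gata3 reached 0.62 TPM in the tubule with the prefix m2, against 0.24 TPM in the next, and Dmrt2 reached 0.15 TPM in the same tubule, against 0.07 TPM. That tubule also had the highest cTAL values of Foxi1 (0.8 TPM), Hmx2 (0.69 TPM) and Tfcp2l1 (104.75 TPM), which the ratio did not flag. The lowest CCD values were 118, 55.5 and 30.8 TPM for Gata2, Gata3 and Dmrt2, so none of the 3 neared the CCD range. Chance gives such a gap in about 1 in 20 groups of normally distributed values. The flagged values lie near 0, and both ends of every member were checked.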

How the results depend on the processing

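Of 298 alternative values for the members in the tubules, 297 kept their direction and side of the threshold, as did 100 of 100 with GFP and 102 of 108 with c-Kit. Pax2 in the tubules turned to -0.24 under quantile normalization, and the cause was not tested. Genes called numbered 5101 with GFP, 6348 with c-Kit and 2526 in the tubules. They were 1639 with limma on RPKM and 4401 with sample weights in the tubules. Leaving out 1 sample gave 3616 to 4211 with GFP, 3458 to 5701 with c-Kit (3600 without the first and 3458 without the second DBA sample) and 2239 to 3078 in the tubules. With the replicate number as a block, 5897 genes were called with GFP and 6271 with c-Kit, whose numbers are not stated to pair samples. The tubule prefix as a block, chosen like the other prefix fits after seeing the data, gave 2588, and the blocks changed no call of a member.

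With any TPM above 0 counted as detected, 7 members reached 50% of cells in each of the 5 types, and pairs reaching it numbered 21 (type A), 16 (type B), 18 (principal), 18 (proximal) and 19 (non-epithelial). At 5 TPM and at 10 TPM proximal cells had 1 member and 0 pairs and non-epithelial cells 0 pairs, and at 10 TPM type B cells had 3 pairs. With at least 2000 genes per cell, non-epithelial cells had 2 pairs, and 7 of 95 detection shares moved beyond their interval. Changing the detection threshold moved 86 of 95 shares with any TPM above 0, 9 of 95 at 5 TPM and 24 of 95 at 10 TPM. Leaving out cells that carried markers of both classes removed 29 of 87 type A, 2 of 23 type B and 53 of 74 principal cells. No proximal or non-epithelial cell was removed, so their shares could not move. Type A, type B and principal cells then had 4 members each and 6, 4 and 6 pairs. The shares that moved beyond their interval were 13 of 95, all in these types. Among them, Foxi1 in principal cells went from 13.5% to 4.76%, Elf5 from 5.41% to 0 and Gata2 from 85.1% to 71.4%, Gata3 with Gata2 from 83.8% to 66.7%, and Foxi1 with Dmrt2 from 6.76% to 0. In type A cells Hmx2 went from 1.15% to 0 and Gata2 with Ehf from 24.1% to 15.5%, and in type B cells Pax2 from 4.35% to 0. Without collecting duct markers, also chosen after seeing the data, proximal and non-epithelial cells had 1 member and 0 pairs, and 26 of 38 shares moved. By the median over cells the highest type was proximal for Pax2 and none for Elf5.

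In the tubules the filter of a mean of at least 10 TPM removed Elf5 and Pax2 and gave no value for them. TPM keeps no depth, so a value near 0 in cTAL or in a cell says only that the transcript is listed there at that level. With 2 samples a group, spreads rest on the pooled fit, and an arm left with 1 sample is assumed to vary like the other.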

Other observations

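2610016A17Rik, an antisense-class noncoding gene that starts 158 bases from Dmrt2 on the opposite strand (chromosome 19, 25671134 to 25672253), was looked at after its values were seen. It averaged 77.9 TPM in the 11 CCD tubules (43.1 to 176) and 0.0275 TPM in the 8 cTAL tubules (0 to 0.22). With c-Kit it was at 135 and 154 TPM and with DBA at 2.69 and 4.99 TPM, the same order as Dmrt2. Among single cells, 40 of 87 of type A had it, 35 of them with Dmrt2. Dmrt2 was in 73 of all 87, so that overlap is near its share alone. 2610016A17Rik was also in 0 of 23 type B, 3 of 74 principal, 1 of 19 proximal and 6 of 32 non-epithelial cells. Dmrt2 was with it in 0 of those principal, 1 proximal and 4 non-epithelial cells. The annotated genes do not overlap, and the strand setting of the counting is not stated.

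The levels of Dmrt2 and Hmx2 in single CCD tubules were looked at after their values were seen. The 2 tubules with the prefix m6 had 43.2 and 30.8 TPM of Dmrt2 with 288 and 300.01 TPM of Hmx2. The tubule with the prefix m2 had 106 TPM of Dmrt2 and 58.5 TPM of Hmx2, and the fewest genes of any tubule, 7621. Independence of tubules that share a prefix is not stated, and no correlation is given.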
